A study of Mus musculus with 12 samples.

Results

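Wide distal H3K4me1 domains shared by the crypts and villi of the mouse small intestine were taken from peak lists of chromatin immunoprecipitation with a spike-in (ChIP-Rx). A domain was a crypts H3K4me1 peak of at least 4000 bp that overlapped a villi H3K4me1 peak by at least 1 bp, lay more than 1000 bp from every protein-coding start site of the GENCODE annotation of GRCm38 and overlapped no crypts H3K27me3 peak. Of 54642 crypts H3K4me1 peaks, 4346 had the width, 3095 of these were distal, 3083 were also shared, and 3076 remained once peaks with crypts H3K27me3 were left out. The 3076 domains were 5.63% of the peaks and held 18.6% of the 100.3 Mb in the list. The samples were crypts, which hold the stem and proliferating cells and were freed with EDTA from tissue whose villi had been scraped away, and the villi themselves, which carry the differentiated cells. Strain, age and sex were not given in the sources used here, neither compartment was sorted by cell type, and no treatment or genotype was compared. Both compartments had 1 library for each of H3K4me1, H3K4me3, H3K27me3, H3K9me2 and H3K9me3 and 1 input, 12 libraries in all, of which the 10 peak lists were used. Since each compartment had 1 library per modification, no comparison of the compartments could be set against replicate error, and none carries a p-value.

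Monomethylation of histone H3 at lysine 4 is deposited mainly by the MLL3 and MLL4 complexes and marks enhancers, both active and poised, and the flanks of promoters. Trimethylation of the same residue marks the start sites of active or poised genes, and H3K27me3, written by Polycomb, marks silent developmental genes. Broad stretches of an enhancer mark often lie at genes that define a cell's identity. In the intestinal epithelium enhancers are bound by factors such as CDX2, HNF4 and GATA, and many are already open in crypts progenitors before the cells reach the villi.

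The crypts H3K4me1 list held 54642 peaks and the villi list 55341, and the H3K4me3 lists held 16489 and 16977. The H3K27me3 lists held 7611 peaks in crypts and 13797 in villi, those of H3K9me3 2126 and 2089, and those of H3K9me2 6 and 3. Depth is unknown from these lists. The gene lists were written with earlier results of these data known, so they are a description and not an independent check of the tissue. Domains lay nearest to 24 of 28 intestinal transcription factor genes (85.7%), against 9.18% of all 21877 protein-coding genes. Crypts H3K4me1 peaks of 2 to under 4 kb, otherwise chosen alike, lay nearest to 21 of the 28 and to 4451 of all coding genes. Of the lists of other tissues and cells, none of 14 immune cell markers, none of 9 mesenchymal and muscle markers and 1 of 8 neural and liver markers (Ttr) had a domain, and counts this small cannot be told from the share over all genes. At start sites 8 of 14 immune markers had an H3K4me3 peak in villi and 2 in crypts, against 57.8% and 57.6% of all coding genes. The villi count was near that share and the crypts count under it. The 6 marked in villi alone were Ptprc, Cd3e, Cd3g, Cd8a, Gzma and Runx3, most of them genes of T cells. Of the mesenchymal and muscle markers 3 of 9 had one in villi (Col1a1, Pdgfra and Vim) and 2 in crypts. The part of such cells in the differences between crypts and villi given below was not tested.

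Short windows from 5 domains are shown because their genes recur in the results: the widest domain (Lrig1), a transcription factor of the intestine (Hnf4a), the gene with the most domains (Tcf7l2), a domain that was wider in villi (Dpp4) and a domain that was narrower in villi (Olfm4). Each window is the 300 bp of the gene's widest domain with the most different motif matches outside exons and with at most 25% soft-masked bases, read from the GRCm38.p6 RefSeq genome. Capitals mark a match, on either strand, to one of 8 motifs: TTTATGG for the homeobox factor CDX2, AGATAAG for factors of the GATA family, CAAAGTCCA for HNF4, TGTTTAC for FOXA, GTTAATNAT for HNF1, TGANTCA for AP-1, ATCAAAG for TCF/LEF and CCACACCC for KLF.
Lrig1, chr6:94666239-94666538, plus strand: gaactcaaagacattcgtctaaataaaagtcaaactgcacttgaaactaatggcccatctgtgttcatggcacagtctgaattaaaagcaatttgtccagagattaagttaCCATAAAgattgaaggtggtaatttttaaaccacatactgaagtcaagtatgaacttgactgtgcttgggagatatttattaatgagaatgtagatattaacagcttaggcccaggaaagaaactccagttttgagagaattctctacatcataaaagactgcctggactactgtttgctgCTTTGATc
Hnf4a, chr2:163538322-163538621, plus strand: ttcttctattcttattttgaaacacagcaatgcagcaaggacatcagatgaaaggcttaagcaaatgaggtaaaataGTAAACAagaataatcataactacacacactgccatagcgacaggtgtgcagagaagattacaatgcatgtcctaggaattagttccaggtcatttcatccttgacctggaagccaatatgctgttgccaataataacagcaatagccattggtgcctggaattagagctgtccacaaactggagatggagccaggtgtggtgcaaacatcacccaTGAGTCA
Tcf7l2, chr19:55861761-55862060, plus strand: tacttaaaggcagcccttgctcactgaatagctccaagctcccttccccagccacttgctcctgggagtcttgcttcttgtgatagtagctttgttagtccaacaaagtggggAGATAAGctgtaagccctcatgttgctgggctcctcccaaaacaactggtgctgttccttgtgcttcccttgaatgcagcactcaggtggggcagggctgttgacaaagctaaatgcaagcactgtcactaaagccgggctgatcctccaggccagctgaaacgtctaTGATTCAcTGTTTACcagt
Dpp4, chr2:62390979-62391278, plus strand: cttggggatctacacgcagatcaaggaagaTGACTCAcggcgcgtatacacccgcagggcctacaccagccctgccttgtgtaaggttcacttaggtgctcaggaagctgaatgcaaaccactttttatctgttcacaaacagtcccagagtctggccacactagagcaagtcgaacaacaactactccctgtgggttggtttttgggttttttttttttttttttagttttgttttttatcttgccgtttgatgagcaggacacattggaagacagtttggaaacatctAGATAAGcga
Olfm4, chr14:80006355-80006654, plus strand: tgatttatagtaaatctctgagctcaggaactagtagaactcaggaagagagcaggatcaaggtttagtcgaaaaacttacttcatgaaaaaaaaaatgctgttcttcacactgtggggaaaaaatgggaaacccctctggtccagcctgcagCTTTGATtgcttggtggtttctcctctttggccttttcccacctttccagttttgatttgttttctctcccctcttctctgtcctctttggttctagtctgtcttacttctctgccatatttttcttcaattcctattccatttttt
All 5 windows lie in introns of the gene they are named for. The windows of Lrig1, Hnf4a, Tcf7l2 and Dpp4 lay whole in a villi H3K4me1 peak, and none of the 300 bp of the Olfm4 window did.

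Matches to these motifs were no denser in the wide domains than in narrower distal shared peaks of 2 to under 4 kb. AP-1 was the commonest, with 0.360 matches per kb in the domains and 0.371 in the 8247 narrower peaks. GATA stood at 0.184 and 0.198 per kb, CDX2 at 0.163 and 0.171, and HNF4 at 0.0265 and 0.0363. FOXA, HNF1, TCF/LEF and KLF also had fewer matches per kb in the domains. In the central 300 bp, 9.88% of the domains and 11.2% of the narrower peaks held an AP-1 match. The other shares, domains first, were 5.14% and 5.51% for CDX2, 5.75% and 6.73% for GATA, 0.975% and 1.33% for HNF4, 5.10% and 5.14% for FOXA, 1.17% and 1.69% for HNF1, 5.79% and 5.75% for TCF/LEF and 4.06% and 4.26% for KLF. A match is a string of letters and not a bound site. Base composition was also close to that of the narrower peaks. The median GC content was 45.9% in the domains and 45.6% in the narrower peaks, against 48.0% in the 1214 peaks of at least 4 kb at coding starts that were otherwise chosen alike. CpG dinucleotides numbered 10.6 per kb in the domains and 10.2 in the narrower peaks.

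The domains had a median width of 5296 bp with quartiles of 4533 and 6687 bp. Widths were chosen on and are given as a description. Just inside the limit lay domains of 4000, 4001 and 4002 bp nearest to Lsm14a, Enpp7 and Laptm4a, and just outside it peaks of 3999, 3998 and 3997 bp nearest to Sema4b, Mro and Lrig3. The widest domain reached 33467 bp in Lrig1, which encodes a transmembrane brake on ErbB receptors and marks a stem cell population. It was followed by domains in Itga6, a laminin-binding integrin subunit, with 28703 bp, Atp8b1, a phospholipid flippase, with 25698 bp, Epb41l4b with 23282 bp and Cdh1, which encodes E-cadherin, with 22081 bp. The other 5 of the 10 widest lay in Cystm1 and Nln, near Coq2, in Slc9a3r1 (nearest start Nat9) and in Ezr, and measured 19812 to 20574 bp. Slc9a3r1 and Ezr encode partners that anchor the brush border to actin. Here and below a gene is the one with the nearest coding start, which does not make it the target of a domain.

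Villi H3K4me1 peaks covered a median of 94.5% of a domain's bases, with quartiles of 84.7% and 99.8%, and 89.7% of the bases of all domains pooled. In the narrower peaks the median was 92.5% and the pooled share 85.5%. Of the domains, 733 (23.8%) were covered whole and 102 (3.32%) by under 50%. In the narrower peaks the shares were 25.4% and 6.51%, and over all crypts H3K4me1 peaks, shared or not, 22.5% and 22.1%. Among the lowest shares were 10.8% in Ephb2, a receptor tyrosine kinase of crypts cells, 12.7% in Vgll4, 12.8% near Slc25a5 and 12.9% in Grhl2, an epithelial transcription factor. Also among the 5 lowest was a domain near Tmsb4x, where a villi peak of 640 bp met a domain of 4704 bp. Domains covered at 100% with high crypts scores included those nearest to Fam83g, Krt78, Jakmip1 and Cdip1.

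A wide crypts domain was often called in pieces in villi. More than 1 villi peak met 893 domains (29.0%, 95% Wilson interval 27.5% to 30.7%), against 4.71% of all crypts H3K4me1 peaks and 9.15% (8.55% to 9.80%) of the narrower peaks. Wide peaks at coding starts were met so in 32.1%, and of the wide regions chosen on the villi list 23.7% met more than 1 crypts peak. The share was 12.5% once H3K4me1 peaks under 1 kb apart were joined and 17.3% in the top 50% of each list by score. By width, the share was 20.3% for domains of 4 to 5 kb and 52.9% for those of 12 kb or more, and a wider peak has more room for a gap. Crypts H3K4me3 peaks numbered 62.3 per Mb in the first of these classes and 58.5 per Mb in the second. A domain near Tomm20 of 14951 bp met 5 villi peaks, the most of any, and domains of Arhgap32, Fut8, Srsf5 and Epcam met 4 each. The gaps inside the domains between villi peaks numbered 1024 with a median of 478.5 bp, and 150 of them (14.6%) held villi H3K4me3. Of the bases without a villi H3K4me1 peak 9.27% lay in villi H3K4me3, and of the covered bases 9.95%.

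**Figure D1:**
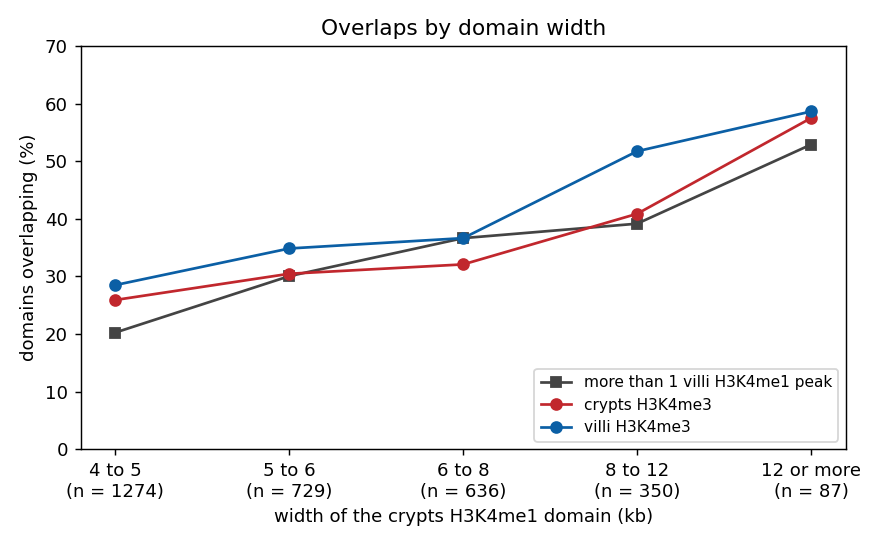
Share of wide distal domains (y axis, %) that met more than 1 villi H3K4me1 peak (squares), a crypts H3K4me3 peak or a villi H3K4me3 peak (circles), by width of the crypts domain in kb (x axis). Each share is higher in the widest class, 52.9%, 57.5% and 58.6%, than in the narrowest, 20.3%, 25.9% and 28.5%.

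The width of the widest villi peak at each domain was set against that of the crypts domain. The median log2 ratio, villi over crypts, was -0.05, with quartiles of -0.52 and 0.14 and a range of -3.21 to 2.58. The villi peak was at least 2-fold narrower at 351 domains (11.4%), against 5.34% of the 44666 shared crypts H3K4me1 peaks, 9.02% of the narrower distal peaks and 10.3% of the wide peaks at coding starts, and at least 2-fold wider at 107 (3.48%), against 8.76%. The ratio uses the widest villi peak alone, and 286 of the 351 met more than 1 villi peak, so most were split calls. Both met by 1 villi peak and 2-fold narrower were 65 of all 3076 domains (2.11%) and 5.76% of all 8247 narrower peaks. Exactly 1 villi peak met 71.0% of the domains and 90.8% of the narrower peaks. The choice of wide crypts peaks favours ratios under 0. When the rule was applied to the villi list with the compartments exchanged it found 3181 regions, whose median ratio, villi over crypts, was 0.12. Of the domains 2109 (68.6%) overlapped one of those regions, and 2106 of those regions (66.2%) overlapped a domain. For these reasons the overall direction is not read, and lists of genes are set beside the median of all domains.

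**Figure D2:**
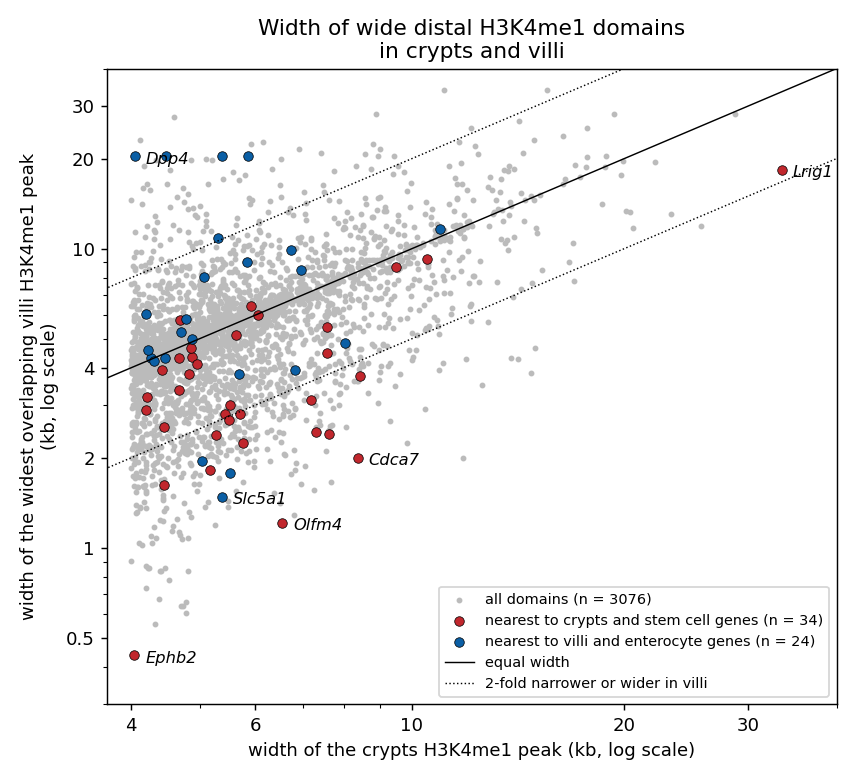
Width of the widest overlapping villi H3K4me1 peak (y axis, kb, log scale) against that of the crypts H3K4me1 domain (x axis, kb, log scale) for 3076 domains (grey), those nearest to crypts and stem cell genes (red, 34) and those nearest to villi and enterocyte genes (blue, 24), with a solid line at equal width and dotted lines at a 2-fold difference. Most red points lie under the solid line, and 4 points of Dpp4 share 1 villi peak of 20350 bp.

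Domains near crypts and stem cell genes had narrower or split calls in villi. Of the 20 genes on the list 12 had a domain, against 9.18% of all 21877 protein-coding genes, and 16 had a narrower distal peak. Domains near these genes numbered 34. Their median log2 ratio was -0.79 beside -0.05 for all domains, 13 of 34 (38.2%, against 11.4% of all domains) were at least 2-fold narrower in villi, and 2 (5.88%, against 42.4%) had a ratio above 0. None was 2-fold wider, beside 3.48% of all domains, so nothing is read from that count. Of those 13, 8 met more than 1 villi peak and 5 met 1. Each of the 12 genes had a median ratio under 0. Villi peaks covered a median of 79.7% of these domains.

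Olfm4, a marker of the stem cells at the crypts base, had 2 intronic domains. They measured 6545 and 4445 bp in crypts, and the widest villi peaks there were 1212 and 1619 bp. Villi peaks covered 36.8% and 36.4% of them. A domain in Ephb2 of 4042 bp met a villi peak of 437 bp, the lowest ratio of all domains (-3.21), while the remaining Ephb2 domains had ratios of -0.81 and -0.47. Upstream of Cdca7, a chromatin-associated target of MYC, a domain of 8384 bp met a villi peak of 1994 bp that covered 23.8% of it. In Smoc2, a secreted matricellular protein of the stem cell signature, a domain of 7306 bp met a villi peak of 2433 bp.

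Lrig1 had 5 domains with ratios of -1.51, -1.20, -1.02, -0.87 and -0.19. Its domain of 33467 bp was met by 3 villi peaks that together covered 92.7% of it, the widest 18347 bp, so here the call was split rather than lost. Lgr4, a receptor of R-spondin, had 4 domains with ratios of -1.67 to -0.12. Rnf43, a ubiquitin ligase that removes Wnt receptors, had 4 domains with ratios of -1.17 to -0.01. In Axin2, a Wnt target and scaffold of beta-catenin degradation, the ratios were -1.14, -0.16 and 0.12. The other ratio above 0 came from a Sox9 domain with 0.30, of which villi peaks covered 43.5%. Lgr5, Ascl2, Znrf3, Cd44, Ephb3, Msi1, Tnfrsf19 and Myc had no domain.

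Near villi and enterocyte genes the median ratio was above 0 counted by domain, but not counted by gene. Of 25 genes 14 had a domain (56.0%, against 9.18% of all coding genes), and 17 had a narrower distal peak. The 24 domains had a median log2 ratio of 0.14 and a median covered share of 98.8%. The ratio was above 0 in 16 of 24, against 1304 of all 3076 domains (42.4%). At least 2-fold wider in villi were 5 domains (20.8%, against 3.48% of all domains), all of Dpp4, and at least 2-fold narrower were 3 (12.5%, against 11.4%). Counted by gene, 7 of the 14 had a median above 0 and 7 below, with a median of -0.01 over the genes.

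Dpp4, a brush border peptidase, had 5 intronic domains of 4052 to 5859 bp. One villi peak of 20350 bp met 4 of them, chr2:62389012-62409361, and another of 10857 bp met the fifth. In crypts the same stretch was called as 4 separate peaks. Vil1, the actin-bundling protein of microvilli, had a domain of 6731 bp, which met a villi peak of 9889 bp. Apoa1, an apolipoprotein, had 4193 and 6033 bp. Ratios under -1 were seen at Slc5a1, the glucose transporter, with 5374 bp in crypts and 1477 bp in villi, at Enpep, a peptidase, with 5036 and 1949 bp, and at 1 of 2 domains of Cdh17, an intestinal cadherin, with 5515 and 1781 bp. All 3 met more than 1 villi peak. The crypts and villi H3K4me3 peaks each covered all 5515 bp of the Cdh17 domain.

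The order of these 2 lists was the same in narrower distal peaks. Among narrower shared peaks of 2 to under 4 kb the median log2 ratio was -0.72 for 54 peaks near crypts and stem cell genes and 0.16 for 38 near villi and enterocyte genes, beside -0.04 for all 8247. In the choice on the villi list, 66.2% of whose regions overlap a domain and so are largely the same loci, the medians were -0.16 for 13 regions and 0.26 for 20, beside 0.12. At coding starts the order was not seen, since 8 wide peaks of enterocyte genes had a median of -0.66 and 6 of crypts genes -0.35, beside -0.07 for all 1214.

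**Figure D3:**
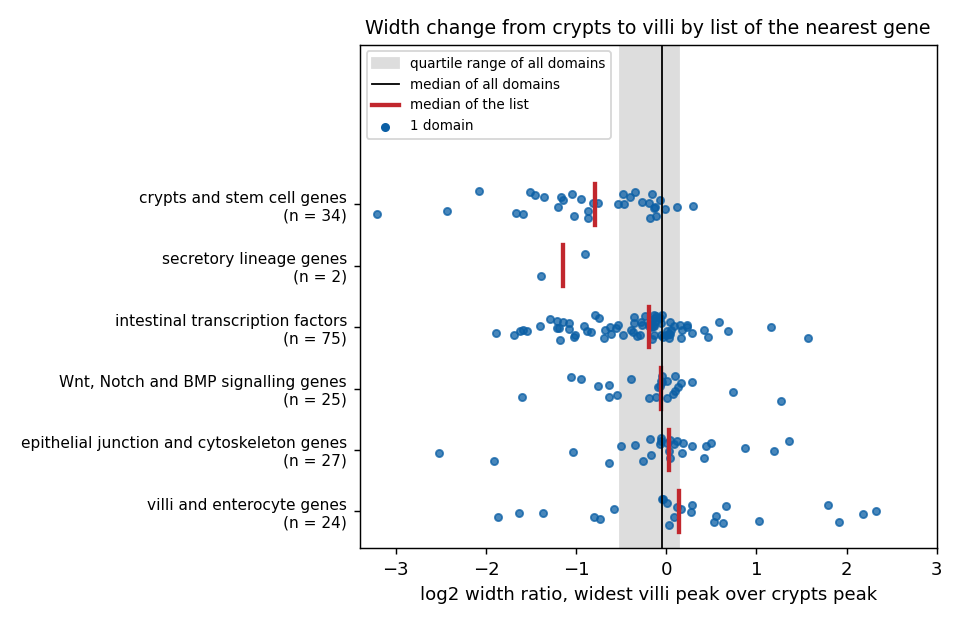
Log2 ratio of the widest villi H3K4me1 peak over the crypts domain (x axis) for each domain (blue points), by list of the nearest gene (y axis), with red bars at list medians and a black line and grey band at the median and quartile range of all 3076 domains. The median is -0.79 for crypts and stem cell genes and 0.14 for villi and enterocyte genes.

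Intestinal transcription factor genes were the list most often near a domain, 24 of 28 (85.7%, 95% Wilson interval 68.5% to 94.3%), against 9.18% of all coding genes. Their domains numbered 75. Their median log2 ratio was -0.19, 16 (21.3%, against 11.4% of all domains) were at least 2-fold narrower in villi, 14 of them met by more than 1 villi peak, and 2 (2.67%, against 3.48%) at least 2-fold wider. The ratio was above 0 in 20 of the 75 (26.7%, against 42.4%), and 4 of the 24 genes had a median above 0. Hnf4a, a nuclear receptor of enterocytes, had 4 domains of 17301, 13739, 6595 and 5640 bp in crypts, with ratios of 0.00, 0.46, -0.14 and 1.16. Ppara, a regulator of fatty acid oxidation, had 4 domains with a median ratio of 0.11, and Maf 3 with 0.04. Medians under -0.6 were found at Onecut2 (-1.08, 1 domain), Hnf4g (-0.94), Vdr (-0.90), Rreb1 (-0.83), Hes1 (-0.66) and Prdm1 (-0.63). Klf5, a regulator of crypts proliferation, had 8 domains with a median of -0.14, of which 4 lay between 280506 and 312593 bp from its start. The genes without a domain were Cdx2, Foxa1, Foxa2 and Foxa3.

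Among Wnt, Notch and BMP signalling genes 11 of 23 had a domain (47.8%, against 9.18% of all coding genes), and 19 had a narrower distal peak. The 25 domains had a median ratio of -0.06. Tcf7l2, the main nuclear partner of beta-catenin in the gut, had 9 domains, more than any other gene. Their median ratio was 0.00 and their median covered share 97.0%. Adjacent Tcf7l2 domains of 8566 and 12427 bp met the same villi peak of 20758 bp. Of 17 epithelial junction and cytoskeleton genes 12 had a domain (70.6%, against 9.18%), and 13 had a narrower distal peak. The 27 domains had a median ratio of 0.03. Cdh1 had domains of 22081, 7871 and 6290 bp, and 1 villi peak of 14386 bp met both of the narrower ones. Epcam, an epithelial adhesion molecule, had 5 domains whose ratios ran from -2.52 to 0.44. Of 22 secretory lineage genes Gfi1b and Sox4 had a domain each, 9.09% beside 9.18% of all coding genes, with ratios of -0.90 and -1.39. In the choice on the villi list, 4 secretory regions had ratios above 0 and a median of 1.13, so no direction is given for this list. The Ttr domain had 4774 bp in crypts and 4772 bp in villi.

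After Tcf7l2 the genes with the most domains were Plekha6, Rere and Klf5 with 8 each, and Tns3, Zmiz1, Ankrd11, Trak1, Klf3 and Pik3r1 with 7 each. The median ratio ran from -0.71 at Rere, a transcriptional corepressor, and -0.69 at Pik3r1, a regulatory subunit of PI3 kinase, to 0.22 at Zmiz1 and 0.26 at Ankrd11. In all, 2009 genes were nearest to a domain, 1376 of them to 1 and 43 to 5 or more. Joined where less than 12.5 kb apart, they formed 2503 clusters, and 1016 domains were in a cluster of at least 2. The largest held 7 domains over 68459 bp of Plekha6, chr1:133188149-133256607, and the next 6 over 79666 bp at Elf3, an epithelial transcription factor, and Gpr37l1.

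The largest ratios, named after their values were seen, lay in Actn4, an actin crosslinker, where a domain of 4604 bp met a villi peak of 27561 bp, and in Il22ra1, the receptor of interleukin 22, with 4113 and 23083 bp. Both crypts domains lay whole within the villi peak. Arpc2, a subunit of the Arp2/3 complex, had a domain of 4343 bp within a villi peak of 19756 bp.

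Part of these distal domains overlapped H3K4me3. A crypts H3K4me3 peak met 949 domains (30.9%, 95% Wilson interval 29.2% to 32.5%), against 36.3% of all crypts H3K4me1 peaks, which include those at promoters. A villi H3K4me3 peak met 1082 (35.2%, 33.5% to 36.9%), against 36.6%. In narrower distal shared peaks the shares were 14.8% and 16.2%, and in the wide peaks at coding starts 88.2% and 88.3%. Width gives more room for an overlap. Per Mb the domains held 59.0 crypts and 69.8 villi H3K4me3 peaks, and the narrower peaks 55.4 and 60.9. In the middle 2 kb of a domain crypts H3K4me3 was called in 553 domains (16.7% to 19.4%) and villi H3K4me3 in 710 (23.1%, 21.6% to 24.6%), against 14.0% and 15.4% in the narrower peaks.

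**Figure D4:**
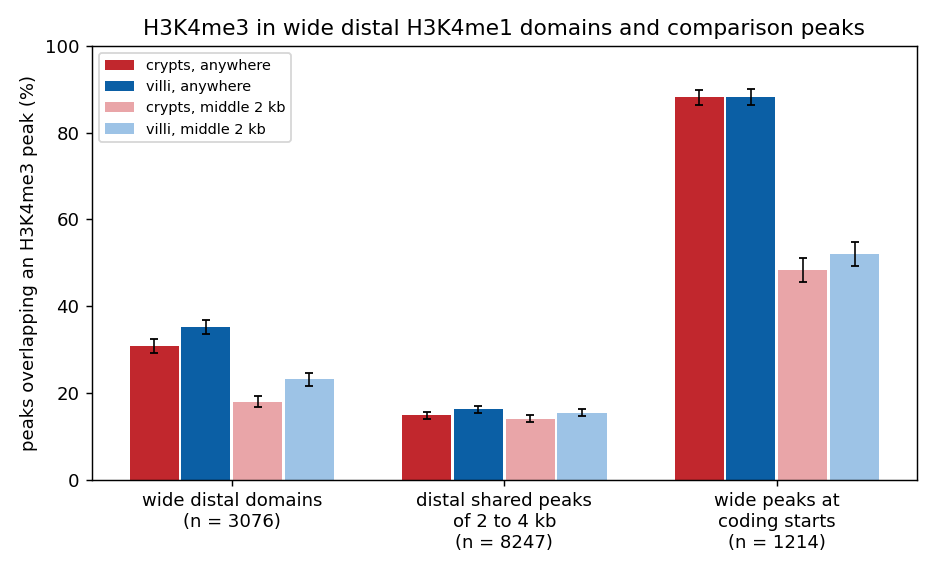
Share of peaks that overlap an H3K4me3 peak (y axis, %), anywhere or in their middle 2 kb, in crypts and villi, for the wide distal domains and 2 comparison sets (x axis), where bars are shares and error bars 95% Wilson intervals for counting error only. The wide distal domains lie between the narrower distal peaks and the wide peaks at coding starts.

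The best crypts H3K4me3 peak in a domain had a median score of 48.5, the authors' −log10 p-value, against 173 over all crypts H3K4me3 peaks, and in villi the medians were 38.0 and 126. In the narrower distal peaks the median best scores were 45.7 and 38.5, close to those in the domains. H3K4me3 covered a median of 1183 bp of a domain in crypts and 1255 bp in villi, and 942 and 929.5 bp of a narrower peak. When the rule was applied to the top 50% of each list by score, it found 2836 domains, of which crypts H3K4me3 met 10.3% and villi H3K4me3 11.4%. A non-coding start site lay in 11.0% of the domains with H3K4me3 in either compartment and in 7.45% of those without. The widest overlap was at Sdc4, a heparan sulfate proteoglycan of the cell surface, where the domain measured 12978 bp and H3K4me3 covered 10628 bp of it in crypts and 10730 bp in villi. In Zbtb7a, a transcriptional repressor, it covered 5769 and 5870 bp of a domain of 8615 bp. In Nfe2l2, the regulator of the antioxidant response, it covered 5690 and 6356 bp of a domain of 11689 bp.

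H3K4me3 was called in both compartments in 835 domains (27.1%), in villi alone in 247 (8.03%) and in crypts alone in 114 (3.71%). In the narrower peaks these shares were 12.7%, 3.48% and 2.09%, and over all crypts H3K4me1 peaks 34.4%, 2.15% and 1.83%. Of 14 immune markers, 6 had H3K4me3 at a start in villi alone and none had a domain. The part of immune cells in these shares was not tested. In bases, H3K4me3 was wider in villi in 776 domains, narrower in 418 and equal in 1882, of which 1880 held none in either compartment. The same direction was found in the narrower peaks, 859 wider and 639 narrower, and in the wide peaks at coding starts, 659 and 436. The rule did not use H3K4me3, so it can be set beside the H3K4me1 ratio. Where the villi H3K4me1 peak was at least 2-fold narrower, H3K4me3 was wider in villi in 48 domains and narrower in 73. Where the H3K4me1 peak was at least 2-fold wider, H3K4me3 was wider in 35 and narrower in 4.

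Near crypts and stem cell genes H3K4me3 covered fewer bases in villi in 13 of 34 domains, more in 4 and the same in 17. Over all 3076 domains it covered fewer in 418, more in 776 and the same in 1882. Of 54 narrower distal peaks near these genes 6 had fewer and 1 more. Of 6 wide peaks at their coding starts 5 had fewer and 1 more, so the direction was not particular to the wide domains. The summed length in the 34 domains was 28047 bp in crypts and 13807 bp in villi. In the widest Lrig1 domain the H3K4me3 length was 6487 bp in crypts and 1735 bp in villi. In Rgmb, a BMP co-receptor, a domain of 5517 bp held 3395 and 1023 bp. In Smoc2 and Slc12a2, the sodium, potassium and chloride cotransporter of crypts cells, domains with 1193 and 2887 bp in crypts held none in villi.

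Near villi and enterocyte genes H3K4me3 covered more bases in villi in 11 of 24 domains, the same in 13 and fewer in none, and the summed length was 16043 bp in crypts and 35769 bp in villi. Over all 3076 domains 776 had more and 418 fewer. Of 38 narrower distal peaks near these genes 8 had more and 2 fewer, and of 8 wide peaks at their coding starts 8 had more. The domain in Slc15a1, the transporter of small peptides, had no H3K4me3 in crypts and 3498 bp in villi. A Dpp4 domain of 4484 bp had none in crypts and 2952 bp in villi. In Anpep, an aminopeptidase of the brush border, the length was 2716 bp in crypts and 7424 bp in villi, and the H3K4me1 ratio there was -0.73. Of the 75 domains of intestinal transcription factor genes 20 had more H3K4me3 bases in villi, 16 fewer and 39 the same. Of the 27 domains of junction genes 12 had more, 4 fewer and 11 the same. Of 24 narrower distal peaks of junction genes 10 had more and 2 fewer, and of 6 wide peaks at coding starts 4 had more and 2 fewer. Cdh1 had 2269 and 5571 bp in its widest domain, and Ezr 4383 and 7245 bp, while a Krt19 domain had 964 bp in crypts and 543 bp in villi and the Krt18 domain 2994 and 2739 bp. The domain in Slc9a3r1 had 5001 and 12700 bp.

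The rule excluded crypts H3K27me3 and not that of villi. A villi H3K27me3 peak met 8 domains (0.260%, 95% Wilson interval 0.132% to 0.512%), against 5.90% of all crypts H3K4me1 peaks and 0.618% (0.471% to 0.812%) of the narrower peaks, which were chosen by the same exclusion. With the top 50% of each list by score the share was 0.0353%. The longest overlap was in Slc12a2, with 1942 bp. There a crypts domain of 5758 bp met a villi H3K4me1 peak of 2247 bp, which covered 20.7% of it, and the crypts H3K4me3 of the domain had no counterpart in villi. Grhl3 and Prdm16, both transcription factor genes, followed with 1431 and 1426 bp, and in Grhl3 villi H3K4me1 still covered 90.8% of the domain. Fam43a had 1046 bp, Lipg 912, Socs3 752, Fhdc1 263 and Olfr324 3 bp.

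Crypts H3K9me3 met 17 domains (0.553%, 0.345% to 0.883%), against 0.139% of all crypts H3K4me1 peaks, and villi H3K9me3 met 6 (0.195%), against 0.0494%. The domains are wider than most peaks, and per Mb they held 0.912 crypts H3K9me3 peaks, the narrower distal peaks 0.972 and all crypts H3K4me1 peaks 0.758. For villi H3K9me3 the values were 0.483, 0.265 and 0.299 per Mb, and the domains' value rests on 6 domains, of which the Sfi1 pair met 3 and 2 peaks. The overlap was longest at a pair of domains near Sfi1, a centrosomal protein gene, where villi H3K9me3 covered 4822 of 7612 bp and 3397 of 6459 bp. No domain met an H3K9me2 peak in either compartment, from lists of 6 and 3 peaks, too few for a share to be read.

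The domains lay mostly in introns. Their centre was intronic in 1858 (60.4%), exonic in 92 (2.99%) and intergenic in 1126 (36.6%), so that 63.4% (61.7% to 65.1%) were inside coding genes, against 59.0% of all crypts H3K4me1 peaks and 56.2% of the narrower peaks. The median distance to a coding start was 14814 bp, and a start lay within 100 kb of 91.9% of the domains, against 91.4% of all crypts H3K4me1 peaks. Of the 2009 nearest genes 87.0% had a crypts and 87.2% a villi H3K4me3 peak at a start, against 57.6% and 57.8% of all coding genes and 81.2% and 80.8% of the genes nearest to the narrower distal peaks. H3K27me3 was at a start of 6.62% of them in crypts and 8.76% in villi, against 13.1% and 16.1% of all genes, and in villi 13.4% of those nearest to the narrower peaks.

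The density of domains was 2.20 per Mb on chromosome 11 and 2.07 on chromosome 19. On chromosome 11 they were 6.55% of the crypts H3K4me1 peaks, beside 5.63% over all chromosomes. Per 100 coding genes chromosomes 11 and 19 had 16.4 and 17.7 domains, and chromosome 18 had 23.0. On chromosome X it was 0.0877 per Mb, with 15 domains, which were 2.12% of the 706 crypts H3K4me1 peaks there. All 15 had a narrower villi peak, with a median log2 ratio of -1.43 and a median covered share of 52.5%, beside -0.05 and 94.6% for the 3061 autosomal domains, of which 57.4% had a narrower villi peak. The domains included those near Slc25a5, Gpc4, Atrx, Cldn2, Efnb1 and Tmsb4x. The villi list held 344 H3K4me1 peaks on X (0.622% of its peaks, against 1.29% in crypts), whereas each H3K4me3 list held 436. The median crypts score of the X domains was 23.8, against 43.0 for the autosomal ones, and its part in this was not tested.

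**Figure D5:**
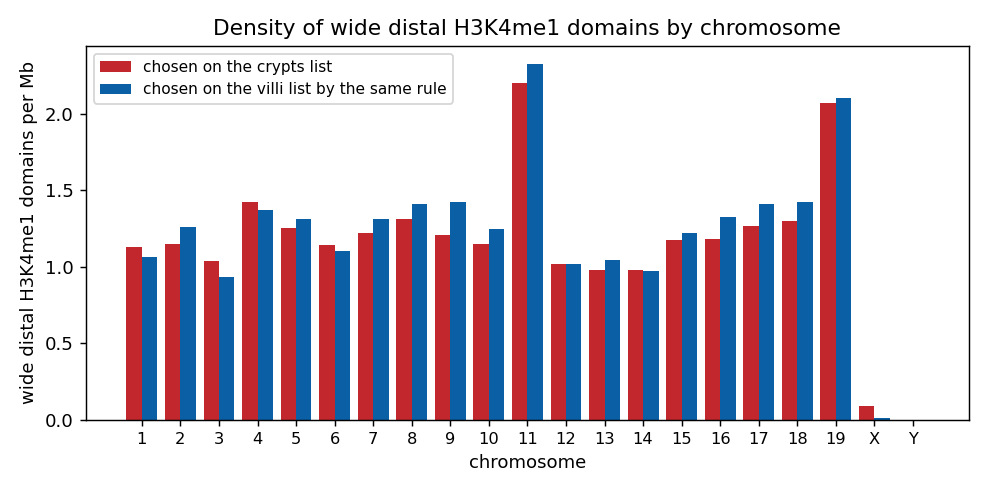
Wide distal H3K4me1 domains per Mb (y axis) by chromosome (x axis), chosen on the crypts list (red) and on the villi list by the same rule with compartments exchanged (blue). Chromosomes 11 and 19 hold the most per Mb, 2.20 and 2.07 on the crypts list, and X holds 15 and 2 domains.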

How the data were processed

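Read pairs of the ChIP-Rx libraries were aligned by the authors to mm10 and dm6 with Bowtie 1.1.2, duplicates and reads mapping to both genomes were removed, and peaks were called with MACS2 2.1.1 at a p-value of 1e-10. The 5% of Drosophila chromatin did not enter the calls. Each deposited list gives peak positions and a score, taken as the authors' −log10 p-value since it is 10 or more throughout, although a q-value is not excluded. The methods name peak calling for 4 modifications, not for H3K9me2. The scores depend on depth, which is unknown, and were used within a list only.

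Overlaps of at least 1 bp were counted with Python 3.11.15, NumPy 2.4.6 and pandas 2.3.3, and the code was tested on 20000 simulated peaks and against bedtools 2.31.1. Coding starts were those of GENCODE protein-coding transcripts on GRCm38, the assembly of mm10. Sequences were read with pysam 0.24.0. Shares have 95% Wilson intervals (SciPy 1.17.1), which are limited to counting error, while adjoining peaks depend on each other. The rule was also applied with other widths, distances, start sites, overlaps and score limits, after joining close peaks, and with the compartments exchanged. No test was made between compartments, since each has 1 library. Genes named are those of the lists, of the 10 widest domains, of the 5 with the lowest or highest covered share, the most villi peaks, the most villi H3K27me3 or the widest crypts H3K4me3, and the 10 with the most domains. Genes at the width limit, in the largest clusters, on chromosome X or with H3K9me3 were named outside this rule, after their values were seen. So were those with the largest width ratios or the shortest villi H3K27me3 overlaps. The domains, gene lists and motifs were chosen with earlier results of these data known. Some genes that the rule names are not reported here.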

Additional observations from a re-analysis of the deposited data

How the results depend on the processing

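Of 81 alternative values, 45 stayed within the interval of the value reported (a count within 1.5 times), 35 moved and 1 reversed. The number of domains was 5712 from 3 kb on and 1802 from 5 kb on. From 3 kb on, the median covered share was 94.0%, 22.4% met more than 1 villi peak, crypts and villi H3K4me3 met 25.3% and 28.6%, 60.4% lay in coding genes and the median distance to a start was 16440.5 bp. From 5 kb on, the values were 35.2% with more than 1 villi peak, 34.4% and 39.9% with H3K4me3, 65.5% in genes and 13642 bp. With the top 50% of each list by score, 17.3% met more than 1 villi peak, 10.3% and 11.4% held H3K4me3 and 0.0353% held villi H3K27me3. An overlap of at least 500 bp gave H3K4me3 shares of 28.1% and 30.8%. Beyond 5 kb from coding starts the shares were 22.8% and 26.9%, with 58.8% in genes and a median distance of 22233 bp, and starts of all transcripts gave 28.4% and 32.3%. After H3K4me1 peaks under 1 kb apart were joined, the covered share was 96.6%, the log2 ratio -0.0012, 12.5% met more than 1 villi peak, 59.9% lay in genes and the distance was 16411 bp. With the compartments exchanged the log2 ratio reversed to 0.12, the covered share was 90.6%, 23.7% met more than 1 peak of the other compartment, 28.5% held crypts H3K4me3, 66.9% lay in genes and the distance was 13578 bp. Choosing wide villi peaks favours ratios above 0. The exchange also changes which list gives the widest overlapping peak, and the part of each was not tested. Over all shared crypts H3K4me1 peaks, with no width limit, the median log2 ratio was 0.0084. Joining leaves fewer gaps to count. The top 50% was also taken of the H3K4me3 lists, so peaks under their median scores of 173 and 126 were left out by construction. The best H3K4me3 peaks in the domains had median scores of 48.5 and 38.0. The causes of the other shifts were not tested.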

Other observations

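The Sfi1 domains, chr11:3130360-3137971 and chr11:3140572-3147030, were covered by villi H3K4me1 peaks at 99.8% and 99.7% and also met 3 and 2 villi H3K9me3 peaks. A crypts H3K9me2 peak lay 7900 bp beyond the second of them. No filter for regions of artefactual signal was applied here, and such signal was not tested at this pair. The other domains with villi H3K9me3 lay nearest to Mroh2a, Fam91a1, Unc5cl and Zfp217, with 37 to 503 bp of overlap.

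The domains that were at least 2-fold narrower in villi had a median GC content of 44.8%, those at least 2-fold wider 48.0% and the others 46.0%. Their AP-1 densities were 0.327, 0.342 and 0.365 matches per kb.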
